A study of Homo sapiens with 4 samples.

Results

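The alpha and beta tubulin genes were examined in 2 human cancer cell lines exposed to CPYPP, a compound that blocks DOCK2, an activator of Rac, and that the study used to induce paraptosis, a form of cell death with cytoplasmic vacuoles. The members were the rows of the deposited count table whose gene symbol was TUBA1A, TUBA1B, TUBA1C, TUBA4A, TUBB, TUBB2A, TUBB2B, TUBB3, TUBB4B or TUBB6, and 10 of the 61806 genes in the table matched, 4 alpha and 6 beta genes. Poly(A)-selected RNA was sequenced in 4 libraries, 1 per condition, from wild-type MDA-MB-231 (labelled breast cancer cells) and wild-type MDA-MB-435 (labelled melanoma cells), each as a control and after 10 µM CPYPP for 6 h. The labels do not name a vehicle for the controls, and the culture and treatment descriptions of all samples name only MDA-MB-435. The question was how the tubulin isotypes differed with CPYPP and between the lines. With 1 library per condition, no difference within a line has a replicate check. Unless stated otherwise, the intervals given are 95% exact binomial (Clopper-Pearson) intervals of read counts, which cover counting error only.

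Microtubules are built from dimers of alpha and beta tubulin, and each vertebrate genome holds several genes, or isotypes, for both chains. The isotypes differ mainly in their acidic carboxy-terminal tails, where motors, severing enzymes and modifying enzymes act. New chains fold in the chaperonin TRiC and are paired by tubulin cofactors. Cells also adjust tubulin mRNA to the pool of free dimer: when free tubulin is high, TTC5 binds the first residues of a chain as it leaves the ribosome, and SCAPER and the CCR4-NOT complex then degrade the mRNA being translated. TUBB (beta I) and TUBB4B (beta IVb) are the broadly expressed beta isotypes, TUBB3 and TUBB2B are best known from neurons, and TUBB6 (beta V) varies widely between cell types.

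Because that control reads the start of the coding sequence, the first 30 coding bases of each member are given, taken from the GENCODE v29 transcripts, with the first 4 codons in capitals. The last 60 coding bases of the beta members, which encode the divergent tail, follow with the stop codon in capitals.
TUBA1A: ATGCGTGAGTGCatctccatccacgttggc
TUBA1B: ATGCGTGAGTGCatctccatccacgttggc
TUBA1C: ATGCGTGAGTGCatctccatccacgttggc
TUBA4A: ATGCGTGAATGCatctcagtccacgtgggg
TUBB: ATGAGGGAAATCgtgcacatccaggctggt
TUBB2A: ATGCGCGAGATCgtgcacatccaggcgggc
TUBB2B: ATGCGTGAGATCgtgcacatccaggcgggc
TUBB3: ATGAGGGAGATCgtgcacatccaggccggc
TUBB4B: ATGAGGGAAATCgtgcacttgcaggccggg
TUBB6: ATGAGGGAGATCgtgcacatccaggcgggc
The carboxy-terminal coding ends of the beta members were as follows.
TUBB: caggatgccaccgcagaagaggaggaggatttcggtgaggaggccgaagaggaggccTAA
TUBB2A: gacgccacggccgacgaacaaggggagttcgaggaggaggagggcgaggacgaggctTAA
TUBB2B: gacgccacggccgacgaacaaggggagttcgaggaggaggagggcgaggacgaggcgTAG
TUBB3: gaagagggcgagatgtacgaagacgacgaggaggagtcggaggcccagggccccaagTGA
TUBB4B: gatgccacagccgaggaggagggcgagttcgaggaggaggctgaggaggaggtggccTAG
TUBB6: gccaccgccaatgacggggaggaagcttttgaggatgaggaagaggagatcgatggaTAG
TUBA1A, TUBA1B and TUBA1C opened with the same 4 codons, and TUBA4A differed by a synonymous base. TUBB and TUBB4B shared their 4 codons, as did TUBB3 and TUBB6, whereas TUBB2A and TUBB2B each had their own spelling. Coding identity ranged from 84.44% to 97.2% over the 6 alpha pairs and from 80.98% to 98.13% over the 15 beta pairs, and was highest for TUBB2A with TUBB2B.

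Near-identical copies limit how far reads can be assigned. TUBB2A and TUBB2B shared a coding run of 725 identical bases, and TUBA1B and TUBA1C one of 326. Of all 100-base windows of the transcript, another annotated transcript held 56.4% for TUBB2A, 46.2% for TUBB2B, 37.2% for TUBA1B, 18.6% for TUBA1A and 11.5% for TUBA1C. The share was 5.10% for TUBB, 2.86% for TUBB4B, 1.84% for TUBA4A and 0 for TUBB6. TUBB3 stood at 89.0%, mostly through a readthrough transcript annotated over the same locus, whose row held 0 counts in all libraries. That row shared 1584 of the 4430 exon bases of TUBB3 on the same strand, so the TUBB3 counts may leave out the shared bases and are uncertain. TUBB2A, TUBB2B and the TUBA1 genes are uncertain as single genes where reads fell in shared stretches. The strand setting of the counting is not given in the sources used here, and 490 exon bases of TUBA1A and TUBA1C, 627 of TUBA4A and STK16, 538 of TUBB and an antisense gene, and 837 of TUBB6 and AFG3L2 lie on opposite strands of the same positions. So do 1309 of the 3574 exon bases of TUBA1B with ENSG00000258017 (2 to 10 counts), 666 of TUBA1C with ENSG00000258232 (0 counts) and 174 of TUBB2B with PSMG4 (171 to 512 counts). The alpha and beta pseudogenes (16 and 35 rows) held 143 to 317 counts in all per library.

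The libraries held 17196385 to 22663954 counts, so that 3 counts, the lowest number read as a level, corresponded to 0.127 to 0.181 CPM, counts scaled to library size. The treatment labels matched the response of the stress gene HMOX1, which had 158 and 443 counts in the controls and 16468 and 47504 after CPYPP. Of the melanocyte markers, SOX10 had 0 and 1 counts in the MDA-MB-231 libraries and 3031 and 707 in the MDA-MB-435 control and CPYPP libraries, and DCT had 1 and 3 against 658 and 464. MITF was alike in the lines (1585 and 690, 1405 and 809), but TYR (2 and 3 counts), PMEL (13 and 4), MLANA (9 and 14) and TYRP1 (10 and 16) were near 0 in MDA-MB-435, and PMEL had 34 and 29 counts in MDA-MB-231. CDH1, an epithelial cadherin, had 837 and 464 counts in MDA-MB-231 cells and 0 in both MDA-MB-435 libraries. Of the 6 epithelial markers, 5 passed a fold of 2 lower in untreated MDA-MB-435, whereas KRT18 was abundant in both controls (8212 and 5740 counts).

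Levels between genes were compared as fragments per exon length and library size (FPKM), computed from the counts, the exon lengths in the table and trimmed-mean (TMM) scaling. In each library the order began with TUBB, TUBB4B, TUBA1B and TUBA1C, and the 95% counting intervals of these neighbours did not overlap. By counts, without lengths, TUBA1B stood above TUBB4B in 3 of 4 libraries. The deposited exon lengths exceed those of the GENCODE v29 transcripts quoted above by unequal factors. They are 3574 against 1627 bases for TUBA1B, 2037 against 1637 for TUBB4B and 7421 against 1769 for TUBB3. The order by FPKM thus depends on the length used, which the counting intervals do not cover. TUBB ranked 17, 29, 22 and 28 among all genes by counts in the MDA-MB-231 control, MDA-MB-231 CPYPP, MDA-MB-435 control and MDA-MB-435 CPYPP libraries. The fifth place went to TUBB6 in MDA-MB-231 cells and to TUBA4A in MDA-MB-435. At the low end, TUBB3 and TUBB2B could not be ordered by these FPKM intervals in MDA-MB-231, nor could TUBB3 and TUBB6 in MDA-MB-435. TUBB2A and TUBA1A overlapped in the control library of MDA-MB-231, and TUBB6 and TUBB2B in the MDA-MB-435 CPYPP library.

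**Figure D1:**
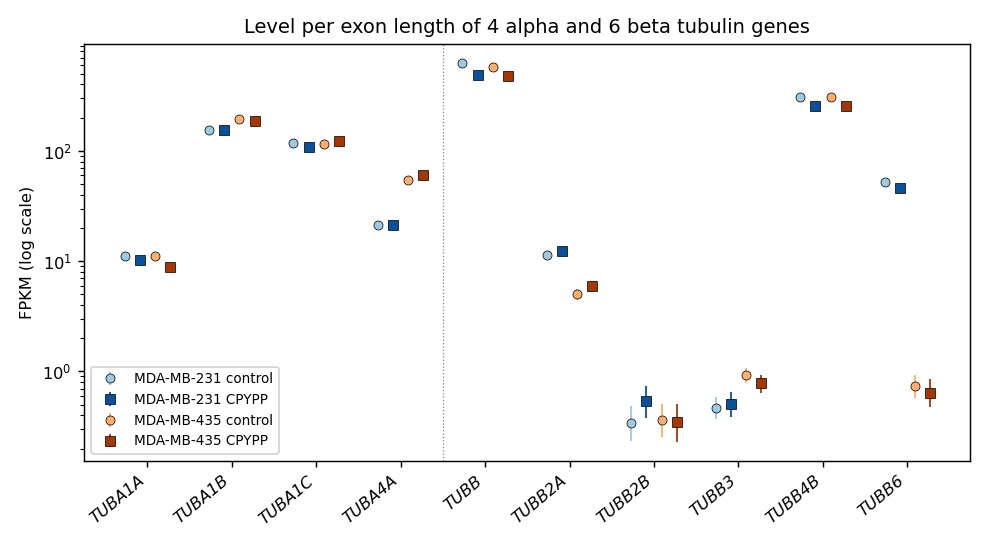
Level of each alpha (left of the dotted line) and beta tubulin gene in the 4 libraries, in FPKM on a log scale, with bars for the 95% Poisson counting interval of each library. TUBB lies at 472 to 621 FPKM in every library, while TUBB6 lies at 46.1 and 52.6 FPKM in MDA-MB-231 cells and at 0.642 and 0.739 FPKM in MDA-MB-435.

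Among the alpha genes, TUBA1B supplied the largest part of the message. TUBA1B (ENSG00000123416, chromosome 12, 49127782 to 49131397, minus strand, GRCh38) was at 154 FPKM in the MDA-MB-231 control, 155 after CPYPP, 194 in the MDA-MB-435 control and 188 after CPYPP. Its level thus differed between the lines more than with CPYPP: it was 1.01 times the control in MDA-MB-231 cells (interval 0.979 to 1.03) and 0.966 times in MDA-MB-435 (0.944 to 0.989). The sign in MDA-MB-231 turned under other scalings, from 0.01 to -0.05 on the log2 scale.

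TUBA1C (ENSG00000167553, chromosome 12, 49188736 to 49274600, plus strand), a neighbour of TUBA1B and TUBA1A, was at 118, 109, 116 and 124 FPKM in the same order of libraries. Its fold was 0.927 (0.901 to 0.954) in MDA-MB-231 cells and 1.07 (1.04 to 1.10) in MDA-MB-435. With TMM scaling it was the one member whose counting intervals lay on opposite sides of 1 in the 2 lines. With library totals its log2 change in MDA-MB-435 was 0.02, beside 0.10 with TMM, so the split may not hold under every scaling.

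TUBA4A (ENSG00000127824, chromosome 2, 219249710 to 219277902, minus strand), which encodes an alpha chain without the terminal tyrosine codon, was at 21.3, 21.2, 54.7 and 60.1 FPKM. Both MDA-MB-435 libraries were above both MDA-MB-231 libraries. With CPYPP it was 0.994 times the control (0.924 to 1.07) in MDA-MB-231 cells and 1.10 times (1.06 to 1.15) in MDA-MB-435.

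TUBA1A (ENSG00000167552, chromosome 12, 49184686 to 49189080, minus strand), an isotype abundant in developing neurons, was at 11.2, 10.3, 11.1 and 8.90 FPKM. The controls were alike, and the CPYPP library was the lower one in each line. The fold was 0.924 (0.835 to 1.02) in MDA-MB-231 cells and 0.802 (0.726 to 0.885) in MDA-MB-435.

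Of the beta genes, TUBB, TUBB4B and TUBB6 were lower in the CPYPP library of both lines. For TUBB and TUBB4B the counting interval lay below 1 in each line. TUBB (ENSG00000196230, chromosome 6, 30717435 to 30725538, plus strand) had 56675 counts in the MDA-MB-231 control, 32962 after CPYPP, 55957 in the MDA-MB-435 control and 37232 after CPYPP, at 621, 490, 580 and 472 FPKM. Both CPYPP libraries were below both controls. The fold was 0.788 (0.778 to 0.799) in MDA-MB-231 cells and 0.814 (0.804 to 0.825) in MDA-MB-435. In bulk RNA, fewer cells with the message and less message per cell cannot be told apart.

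TUBB4B (ENSG00000188229, chromosome 9, 137241287 to 137243707, plus strand) was at 306, 254, 308 and 257 FPKM, with near-equal controls and near-equal CPYPP libraries. The fold was 0.831 (0.809 to 0.854) in MDA-MB-231 cells and 0.837 (0.816 to 0.858) in MDA-MB-435.

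TUBB6 (ENSG00000176014, chromosome 18, 12307669 to 12344320, plus strand) had 4642 and 3005 counts in MDA-MB-231 cells and 69 and 49 in MDA-MB-435. It differed between the lines far more than with CPYPP. The fold with CPYPP was 0.877 (0.838 to 0.919) in MDA-MB-231 cells and 0.869 (0.590 to 1.27) in MDA-MB-435, where the counts leave a wide interval.

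TUBB2A (ENSG00000137267, chromosome 6, 3153497 to 3157544, minus strand) was at 11.3, 12.3, 4.99 and 5.95 FPKM. It was the one beta isotype above 100 counts that was higher in the CPYPP library of both lines, at 1.09 times (0.980 to 1.22) and 1.19 times (1.02 to 1.39) the control.

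TUBB3 (ENSG00000258947, chromosome 16, 89921392 to 89938761, plus strand) had 78, 62, 163 and 112 counts and TUBB2B (ENSG00000137285, chromosome 6, 3223324 to 3231730, minus strand) had 32, 37, 36 and 28. For both neuronal isotypes the counting intervals of the change with CPYPP included 1 in each line. The folds were 1.08 (0.759 to 1.52) and 0.841 (0.655 to 1.08) for TUBB3, and 1.57 (0.95 to 2.60) and 0.952 (0.559 to 1.60) for TUBB2B.

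No member passed a fold of 2 with CPYPP in either line. In MDA-MB-231, 0 of 10 members were higher and 0 lower, against 5.32% of 16441 genes higher and 5.52% lower. In MDA-MB-435, 0 were higher and 0 lower, against 3.45% of 16527 genes higher and 10.9% lower. Past a fold of 1.5, 1 member (TUBB2B) was higher and 0 were lower in MDA-MB-231, against 12.0% and 12.1% of genes. In MDA-MB-435 the counts past 1.5 were 0 and 0, against 8.69% and 20.7%. The members' median log2 fold change was -0.06 for MDA-MB-231 cells and -0.14 for MDA-MB-435 cells, beside -0.02 and -0.09 over all genes.

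**Figure D2:**
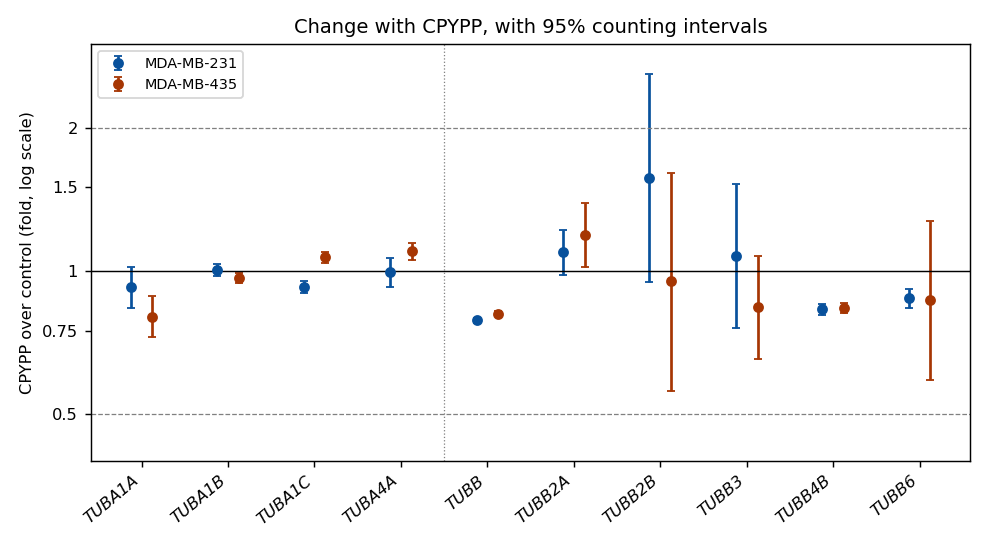
Fold of CPYPP over control for each tubulin gene in MDA-MB-231 cells and MDA-MB-435, on a log scale, with 95% exact binomial counting intervals and dashed lines at folds of 0.5 and 2. TUBB and TUBB4B lie at 0.788 to 0.837 in both lines, and no fold passes 2.

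The lines were the only repeat of the treatment, so an effect shared by both was tested on all 4 libraries by edgeR's quasi-likelihood test with the line as a block. All 10 members passed the filter on low counts. The test, with Benjamini-Hochberg adjustment over 16801 genes, called 737 genes higher (4.39%) and 478 lower (2.85%), and 0 of the 10 members in either direction. At an unadjusted p under 0.05 edgeR counted 2 members, TUBB and TUBB4B, and the DESeq2 Wald test called both lower after adjustment, against 10.1% of genes higher and 6.91% lower by that test. TUBB had a common log2 fold change of -0.32 (SE 0.11), with adjusted p = 0.120 by edgeR and 1.42e-05 by DESeq2. TUBB4B had a common log2 fold change of -0.26 (SE 0.11), with adjusted p = 0.193 by edgeR and 0.000507 by DESeq2. With library totals as the scaling, or without the filter on low counts, edgeR also called TUBB (adjusted p = 0.0225 and 0.00705), against 5.02% of genes higher and 6.47% lower with totals, and 3.46% higher and 2.75% lower without the filter. The other members ranged from -0.22 for TUBA1A to 0.29 for TUBB2B, with edgeR adjusted p from 0.440 to 0.985. Only 1 residual degree of freedom was left, so the spread was drawn largely from other genes.

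Summed over isotypes, beta message was lower after CPYPP in both lines, while the alpha sum stayed within 0.967 and 1.02 times the control. The summed alpha counts were 0.120% of the library in the MDA-MB-231 control and 0.111% after CPYPP, and 0.152% and 0.147% in MDA-MB-435. After scaling, the alpha sum was 0.967 times the control (0.949 to 0.985) in MDA-MB-231 cells and 1.02 times (1.00 to 1.03) in MDA-MB-435, where other scalings gave the opposite sign. The summed beta counts were 0.340% and 0.263% of the library in MDA-MB-231 cells, and 0.315% and 0.246% in MDA-MB-435. Scaled, they were 0.805 times the control (0.796 to 0.814) and 0.821 times (0.811 to 0.830), below 1 under every scaling tried.

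The ratio of beta to alpha counts needs no scaling between libraries. It was 2.84 in the MDA-MB-231 control (2.8 to 2.88) and 2.36 after CPYPP (2.32 to 2.40), and 2.07 in the MDA-MB-435 control (2.05 to 2.10) and 1.68 after CPYPP (1.65 to 1.70). The CPYPP library had the lower ratio in each line, at 0.832 times the control (0.814 to 0.851) and 0.808 times (0.792 to 0.824). Without TUBB the ratio was 0.883 times the control in MDA-MB-231 cells and 0.831 times in MDA-MB-435. Without both TUBB and TUBB4B it was 0.944 times (0.902 to 0.988) and 1.03 times (0.916 to 1.16), so in MDA-MB-435 the difference was no longer outside counting error. This ratio was chosen after the members' values were seen, and it was not tested over replicates.

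**Figure D3:**
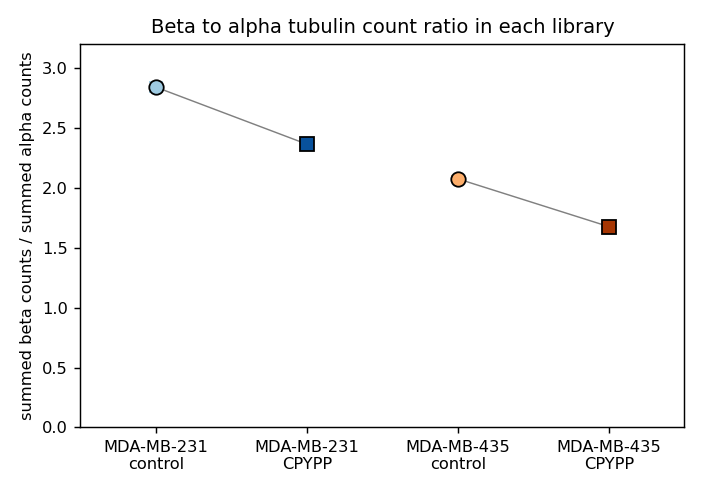
Summed beta tubulin counts divided by summed alpha tubulin counts in each library, with 95% counting intervals, which are smaller than the markers, and grey lines joining the control (circle) and CPYPP (square) libraries of a line. The ratio is 2.84 and 2.36 in MDA-MB-231 cells and 2.07 and 1.68 in MDA-MB-435.

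The make-up of each family was compared per deposited exon length, so the shares depend on those lengths. TUBB held 62.6% of beta FPKM in the MDA-MB-231 control and 60.9% after CPYPP, and 64.8% and 64.0% in MDA-MB-435. TUBB4B, whose exon length in the table is the shortest of the members (2037 bases), held 30.9% and 31.7%, and 34.4% and 34.9%, but 18.4%, 18.9%, 20.8% and 21.2% of the beta counts. These 2 isotypes thus made up most of the beta message in every library, and their shares moved by less than 2 percentage points with CPYPP.

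Among the alpha isotypes TUBA1B held 50.5% and 52.3% of alpha FPKM in the MDA-MB-231 control and CPYPP libraries and 51.7% and 49.3% in MDA-MB-435. TUBA1C held 38.8% and 37.0%, and 30.8% and 32.5%, and as shares of 1 total the values of the alpha isotypes are not independent. TUBA4A held 7.0% and 7.16%, and 14.6% and 15.8%, and TUBA1C and TUBA4A were the alpha isotypes whose shares differed most between the controls.

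**Figure D4:**
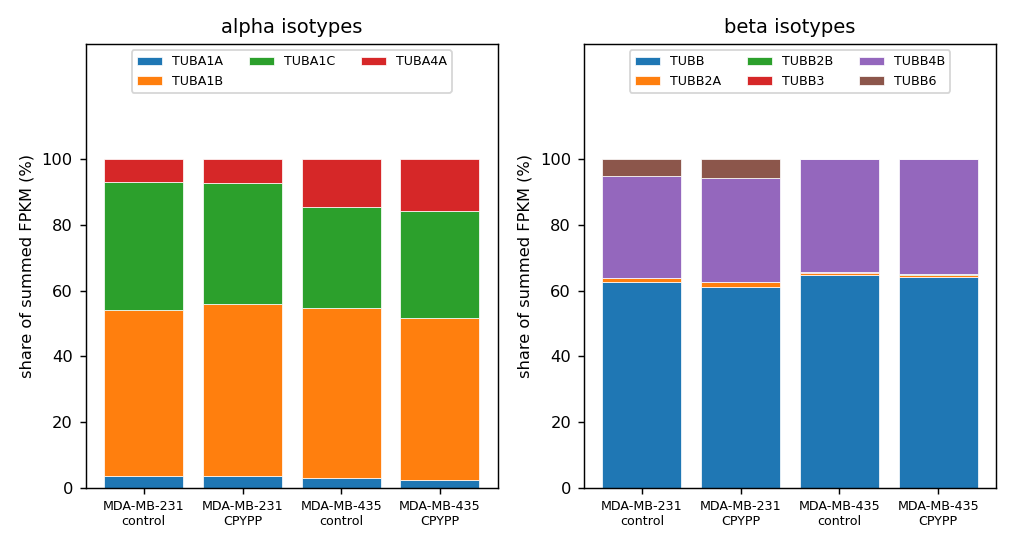
Share of each isotype in the summed alpha FPKM (left panel) and summed beta FPKM (right panel) of the 4 libraries, in percent, as stacked bars. TUBB and TUBB4B fill most of the beta bars in every library, the TUBB6 segment is visible only in MDA-MB-231 cells, and the TUBA4A segment is wider in MDA-MB-435.

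Between the untreated lines, 3 members passed a fold of 2. TUBB6 was 71.2-fold lower in MDA-MB-435 than in MDA-MB-231 (interval 56.1 to 91.6), at 4642 and 69 counts. TUBB2A was 2.25-fold lower, a fold of 0.444 (0.389 to 0.505). TUBA4A was 2.57-fold higher in MDA-MB-435 (2.43 to 2.71). Thus 1 of 10 members was higher and 2 were lower, against 23.8% of 18269 genes higher and 21.5% lower. Past a fold of 1.5, 2 were higher and 2 lower, against 33.2% and 30.6%.

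TUBB3 was 1.98-fold higher in untreated MDA-MB-435 (1.5 to 2.62), which passed a fold of 2 only with library totals or upper-quartile factors as the scaling. TUBA1B was 1.26-fold higher (1.23 to 1.29). The abundant beta isotypes differed little, with folds of 0.934 for TUBB and 1.01 for TUBB4B, and the signs of TUBA1A, TUBA1C and TUBB4B turned under other scalings. This comparison has 1 library per line, so line, culture and library cannot be told apart. AFG3L2, whose exons overlap 837 bases of TUBB6 on the other strand, had 2475 counts in untreated MDA-MB-231 and 3425 in untreated MDA-MB-435.

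TUBB6 is shown with TUBB and TUBB4B by its promoter, as the member that differed most between the untreated lines. TUBB and TUBB4B were the members whose counting intervals with CPYPP lay below 1 in both lines. TUBB6 was itself at 0.877 and 0.869 times the control with CPYPP. Promoter windows of 300 bases around annotated starts were read from RefSeq (GRCh38.p14), where all 10 members matched with 15 windows. TUBB and TUBB6 each had a second window, without CCAAT, which is not shown. Capitals mark CCAAT, the box bound by NF-Y, or its reverse complement ATTGG.
TUBB, chr6:30720102-30720401, plus strand: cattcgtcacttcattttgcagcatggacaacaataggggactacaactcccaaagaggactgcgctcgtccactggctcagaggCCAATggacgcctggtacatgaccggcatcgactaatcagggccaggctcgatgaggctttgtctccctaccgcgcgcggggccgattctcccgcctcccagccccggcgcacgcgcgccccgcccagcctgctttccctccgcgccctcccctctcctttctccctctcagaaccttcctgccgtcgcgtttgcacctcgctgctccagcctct
TUBB4B, chr9:137241037-137241336, plus strand: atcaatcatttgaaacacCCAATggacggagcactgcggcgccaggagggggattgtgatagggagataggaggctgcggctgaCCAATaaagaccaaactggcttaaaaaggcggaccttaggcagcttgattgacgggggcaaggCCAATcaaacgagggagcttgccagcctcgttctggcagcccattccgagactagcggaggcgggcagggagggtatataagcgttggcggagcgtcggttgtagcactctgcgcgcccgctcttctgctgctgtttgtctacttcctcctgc
TUBB6, chr18:12307991-12308290, plus strand: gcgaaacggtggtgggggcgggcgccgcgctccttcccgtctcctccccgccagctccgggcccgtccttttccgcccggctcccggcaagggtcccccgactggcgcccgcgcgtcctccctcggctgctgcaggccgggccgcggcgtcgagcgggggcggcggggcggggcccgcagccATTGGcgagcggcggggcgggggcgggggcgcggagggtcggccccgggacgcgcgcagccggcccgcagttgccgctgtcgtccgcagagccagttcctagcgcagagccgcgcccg
On either strand, CCAAT was found in at least 1 window of 7 of 10 members, against 34.6% of all 35116 promoter windows, and the TUBB4B window held 3 copies. GGGCGG, a GC box, was found in 8 members and 45% of all windows. GAANNTTC, a pair of heat shock element units, was found in 2 members, TUBB and TUBA1C, and in 6.77% of all windows. TATAAA was found in 1 member, TUBB2A, and in 11.5% of all windows. Members with several windows had more chances to hold a motif, and a match is a description of the letters only.

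The response of each member was then compared between the lines, as the log2 change in MDA-MB-435 minus that in MDA-MB-231, which uses the same control libraries as the comparisons above. No member differed by more than a fold of 2, 0 higher and 0 lower, against 2.52% of 14262 genes higher and 7.44% lower. Past a fold of 1.5, 0 were higher and 1 (TUBB2B) lower, against 6.55% and 15.1%. The difference was 0.05 (0.02 to 0.07) for TUBB and 0.01 for TUBB4B, so both had near-equal folds in the lines. It was 0.21 (0.15 to 0.26) for TUBA1C, 0.15 (0.03 to 0.27) for TUBA4A and -0.72 (-1.71 to 0.27) for TUBB2B. TUBA1A differed the other way from TUBA1C, at -0.21 (-0.407 to -0.0036). These intervals come from the Poisson variance of the 4 counts and cover counting error only.

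The remaining tubulin genes were mostly low. Of 13 other alpha, beta, gamma, delta and epsilon tubulin rows, 7 passed the filter and 0 were called in either direction by edgeR or DESeq2. Over all genes tested, edgeR called 4.39% higher and 2.85% lower, and DESeq2 10.1% and 6.91%. The median common log2 fold change was -0.25 beside -0.04 over all genes. TUBE1, epsilon tubulin of the centriole, had 332 and 303 counts in MDA-MB-231 cells and 241 and 538 in MDA-MB-435. After scaling it was 1.24 times the control (1.05 to 1.45) in MDA-MB-231 cells and 2.73 times (2.34 to 3.19) in MDA-MB-435. Its common log2 fold change was 0.88 (SE 0.25, edgeR adjusted p = 0.0607). TUBG2, a gamma tubulin, was at -0.48 (edgeR adjusted p = 0.203), TUBB1 at 0.15 and TUBA3D, at 4 to 25 counts, at -0.75. TUBA3D was at 0.976 times the control in MDA-MB-231 cells and 0.258 times in MDA-MB-435.

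TUBB4A, a beta isotype known from oligodendrocytes and neurons, separated the lines in the opposite direction to TUBB6. It had 2 and 0 counts in the MDA-MB-231 libraries and 810 and 673 in the MDA-MB-435 control and CPYPP libraries, at least 255-fold higher in untreated MDA-MB-435 when 3 counts are taken as the floor per library. TUBB4A is not a member and was chosen after its values were seen. With CPYPP it was 1.02 times the control in MDA-MB-435 (0.917 to 1.13).

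New tubulin chains fold in TRiC. Of its 8 subunits, 1 was called higher and 0 lower by the common edgeR test. DESeq2 called 4 higher and 0 lower (TCP1, CCT4, CCT5 and CCT6A). The median log2 fold change was 0.25. Over all genes tested, edgeR called 4.39% higher and 2.85% lower, and DESeq2 10.1% and 6.91%. TCP1, the first subunit, rose with a common log2 fold change of 0.66 (SE 0.11, edgeR adjusted p = 0.00669), from 9540 to 10467 counts in MDA-MB-231 cells and from 9610 to 13130 in MDA-MB-435, 1.49 and 1.67 times the control after scaling. CCT6A was at 0.31 (edgeR adjusted p = 0.128, DESeq2 0.00221), CCT7 at 0.18 and CCT8 at 0.17. Of 14 tested rows of prefoldin and tubulin cofactor genes, edgeR called 0 and DESeq2 called 1 lower (TBCB, adjusted p = 0.0339), with a median of 0.08. TBCEL was at 0.34, a low row of TBCE, which has 2 rows, at 0.35, TBCC at -0.42 and TBCB at -0.31. The TBCE row with more counts (116 to 202) was at 0.17. That row was at 1.46 times the control (1.19 to 1.79) in MDA-MB-231 cells and 0.850 times (0.665 to 1.08) in MDA-MB-435.

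Of 12 tested genes of tubulin mRNA autoregulation, edgeR called 0 in either direction, against 4.39% of all genes higher and 2.85% lower. The median was 0.17. DESeq2 called 1 higher, against 10.1% of genes by that test. It was CNOT1, the scaffold of the CCR4-NOT complex, at 1.45 and 1.19 times the control (edgeR adjusted p = 0.0758, DESeq2 0.00445). TTC5, which recognises the nascent chain, had 324, 227, 320 and 272 counts and a common log2 fold change of -0.01 (SE 0.18). SCAPER was at 0.43 (edgeR adjusted p = 0.185), CNOT2 at 0.43, CNOT10 at -0.11 and CNOT11, the CCR4-NOT subunit that SCAPER binds, at -0.18 (edgeR adjusted p = 0.535). CNOT11 was at 0.764 times the control in MDA-MB-231 cells and 1.02 times in MDA-MB-435.

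Among 16 tested genes that modify tubulin, edgeR called 1 higher and 0 lower, against 4.39% and 2.85% of all genes. The median was -0.14. DESeq2 called the same gene higher and 1 lower, against 10.1% and 6.91% of genes by that test. The lower one was TTLL12, at 0.805 and 0.746 times the control (edgeR adjusted p = 0.0733, DESeq2 0.000530). TTLL7, a polyglutamylase of beta tubulin tails, rose with a common log2 fold change of 1.15 (SE 0.15, edgeR adjusted p = 0.00153). It went from 709 to 1126 counts in MDA-MB-231 cells and from 234 to 438 in MDA-MB-435, 2.15 and 2.29 times the control after scaling. TTLL4 was at 0.21, with 0.967 times the control in MDA-MB-231 cells and 1.36 times in MDA-MB-435. The detyrosinase VASH1, at 8 to 36 counts, was at -0.84 and its partner SVBP at -0.58, both not called by edgeR. VASH1 was at 1.05 times the control in MDA-MB-231 cells and 0.272 times in MDA-MB-435.

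Of 18 tested microtubule-associated proteins, edgeR called 3 higher and 0 lower, with a median of 0.10, against 4.39% and 2.85% of all genes. DESeq2 called 4 higher, these 3 and MAPRE3 (DESeq2 adjusted p = 0.0454), against 10.1% of genes by that test. MAP1B, which binds and stabilises microtubules, rose by a common log2 fold change of 1.18 (SE 0.11, edgeR adjusted p = 0.000277). It went from 11045 to 17439 counts in MDA-MB-231 cells and from 1302 to 2544 in MDA-MB-435, 2.14 and 2.39 times the control after scaling. MAP2, best known from dendrites, rose by 1.31 (SE 0.21, edgeR adjusted p = 0.00532), from 49 to 124 and from 475 to 795 counts. After scaling, MAP2 was at 3.43 and 2.05 times the control. CLIP1, a plus-end tracking protein named here because it was the remaining call, rose by 0.49 (SE 0.11, edgeR adjusted p = 0.0231). MAP7D3 was at -0.37 and MAP1S at -0.23, neither called by edgeR. MAP1S was at 0.982 times the control in MDA-MB-231 cells and 0.748 times in MDA-MB-435.

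Of 11 tested severing and depolymerizing genes, edgeR called 0 higher and 1 lower, against 4.39% and 2.85% of all genes. DESeq2 called 0 higher and 2 lower, against 10.1% and 6.91% of genes by that test. The median was -0.20. KIF18A, a mitotic kinesin that limits chromosome oscillation, fell with a common log2 fold change of -0.53 (SE 0.12, edgeR adjusted p = 0.0251). It went from 2200 to 1052 counts in MDA-MB-231 cells and from 1906 to 1145 in MDA-MB-435, 0.648 and 0.735 times the control after scaling. KIF2C, a depolymerizing kinesin, was at 0.794 and 0.756 times the control (edgeR adjusted p = 0.0714, DESeq2 0.000205). STMN3, with only 14 and 3 counts in MDA-MB-435, was at -0.69, SPAST at 0.25 and KATNAL1 at 0.23. Of 9 genes of the gamma-tubulin ring complex, which nucleates microtubules, edgeR called 0 and DESeq2 called 1 lower (TUBGCP5), beside the same shares over all genes. The median was -0.17. TUBGCP5 was at -0.58 (SE 0.16, edgeR adjusted p = 0.0585, DESeq2 0.0389), MZT1 at -0.22, TUBGCP3 at -0.02 and TUBGCP4 at 0.28.

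**Figure D5:**
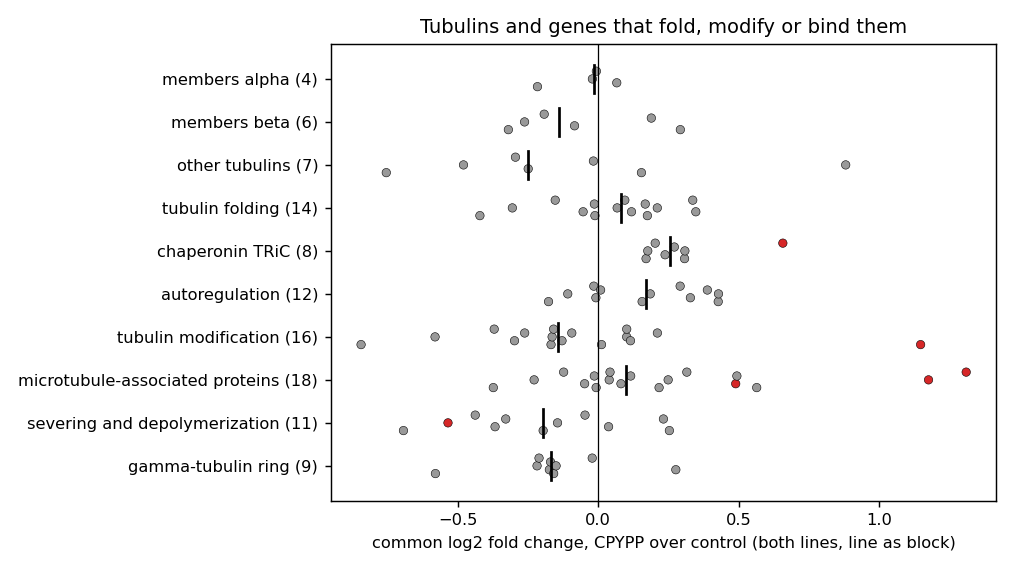
Common log2 fold change of CPYPP over control, from the edgeR fit over both lines, for the tubulin members and 8 further lists, with 1 point per tested gene, red where the adjusted p is under 0.05 and a black bar at each list's median. No tubulin member is red, and the 6 red points are TCP1, TTLL7, MAP1B, MAP2, CLIP1 and KIF18A.

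The genes whose pattern over the 4 libraries was most like the summed alpha and beta messages were found among 4867 genes with a mean of at least 1000 counts, by the Euclidean distance of centred log2 CPM. For alpha, RNPS1 (distance 0.032) and ACTR2 (0.034) were among the nearest, and ACTR2 had 590, 587, 727 and 728 scaled CPM. For beta the nearest were CTBP1 (0.039), ASH2L (0.060) and YWHAH (0.062), and CTBP1 had 107, 82.9, 94.0 and 76.6 scaled CPM. The likeness is a description of these 4 libraries.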

How the data were processed

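The authors deposited raw read counts per gene, with symbols, positions and exon lengths, for 4 libraries of poly(A)-selected RNA. The submitters' processing notes name cutadapt 1.9.1, HISAT2 2.2.1, HTSeq 0.6.1 and DESeq2, without roles. They name GRCh37.p13, but 58159 of the 58254 gene IDs shared with GENCODE v29 overlapped their GRCh38 positions, so GRCh38 is stated. Each column was assigned by its sample label.

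Counts were scaled by TMM in edgeR 4.0.16 on genes passing filterByExpr. Within a line, and between lines, folds were taken for genes with at least 10 counts in 1 of the libraries compared, with counts under 3 set to 3. The common effect was fitted with glmQLFit and glmQLFTest, line as a block, and by DESeq2 1.42.0. The fit was also run on simulated counts with equal means in both lines and library totals as the scaling. That setting differs from these data, so the run does not check the calls given here. FPKM was computed from counts and the exon lengths in the table.

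The members and lists were chosen with earlier results of these data known. Named genes were all members and, per list, the 2 largest and 2 smallest common changes, with TTC5, SCAPER and CNOT11. TUBB4A, CLIP1, the genes called only by DESeq2 and the beta to alpha ratio were added after their values were seen. Melanocyte and epithelial markers and stress genes served as checks of the labels. Alternatives changed the scaling, filter, fold, tool, block and treatment of copies. Some sequences and the values of 1 gene are not reported here.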

Additional observations from a re-analysis of the deposited data

Results flagged for a closer look

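Members whose log2 change with CPYPP had opposite signs in the 2 lines are listed with the change in MDA-MB-435 minus that in MDA-MB-231. This difference was not tested, since each condition had 1 library. It held for 5 of 10 members, against 32.4% of 14262 genes. With TMM scaling, the counting intervals lay on opposite sides of 1 for 1 member, TUBA1C. The difference was 0.21 for TUBA1C, 0.15 for TUBA4A and -0.058 for TUBA1B, whose sign in MDA-MB-231 turned under other scalings. It was -0.72 for TUBB2B and -0.36 for TUBB3, whose highest counts in a library were 37 and 163. For the summed alpha members it was 0.071.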

How the results depend on the processing

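The labels give no replicate numbers, so control and CPYPP were paired only by the line, which the common test has as its block. No library could be left out because each condition had 1. Within each line and in the difference in response, 0 members passed a fold of 2 under every scaling. Between untreated lines 3 passed, and 4 with library totals or upper-quartile factors. At a fold of 1.5 in place of 2 they were 1 in MDA-MB-231 and 1 in the difference in response. With at least 100 counts in place of 10, the genes past a fold of 2 numbered 347 (main 1782) in MDA-MB-231 cells, 612 (2376) in MDA-MB-435 cells, 4314 (8281) between untreated lines and 179 (1421) in the difference, which held 3719 without a minimum beyond 1 count; fewer genes were compared. The genes with a common effect numbered 1930 with library totals, 2001 without the filter, 2131 by DESeq2 and 0 without the line as a block (167 at an unadjusted p under 0.05 by edgeR), beside 1215. The members among them were 1, 1, 2 and 0, beside 0. TUBB was at -0.39 with totals, -0.32 without the filter and -0.32 by DESeq2, and TUBB4B at -0.26 by DESeq2, all past the threshold. The cause was not tested.

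The log2 change of the alpha sum in MDA-MB-231 was -0.11 with library totals, -0.092 with upper-quartile factors and -0.097 without TUBA1B (main -0.048). In MDA-MB-435 it was -0.050 with totals, -0.0036 with upper-quartile factors, 0.049 with DESeq2 size factors and 0.087 without TUBA1B (main 0.023), so its sign depends on the scaling. The beta sum in MDA-MB-231 was at -0.37, -0.36 and -0.33 with totals, upper-quartile and DESeq2 factors and -0.23 without TUBB (main -0.31). In MDA-MB-435 it was at -0.36, -0.31 and -0.26, and -0.24 without TUBB (main -0.28). As shares of counts, without lengths, TUBB held 74.4%, 72.9%, 78.4% and 77.7% of beta and TUBA1B 45.9%, 47.7%, 47.7% and 45.4% of alpha, in the library order above. The beta to alpha ratio, an alternative set chosen after seeing the data, was 0.883 and 0.831 times the control without TUBB, and 0.944 and 1.03 times without TUBB and TUBB4B. Low counts, as for TUBB2B and TUBB3, limit those folds by counting error alone.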
